A study of Rattus norvegicus with 92 samples.

Results

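Nasal-restricted transcripts were the rows that carried many reads in rat nasal epithelium and few in any other tissue sampled. A row was a member if its mean level in the air-exposed noses was at least 30 CPM (each value divided by its sample's sum, on a scale where a sample sums to 1000000) and at least 20 times its mean level in the air-exposed samples of each of 7 other tissues: lung, liver, adrenal, adipose, muscle, hippocampus and hypothalamus. Of 20508 rows, 84 were members, all listed under Ensembl transcript identifiers. The members were chosen by their air levels, in the nose and elsewhere, so those levels are given as a description without a test. The tables do not pair identifiers with gene symbols, and none of the identifiers could be matched to a symbol in the RefSeq gene table, so the members are described by identifier, rank and behaviour and not by function. For the same reason the tissue labels were not checked against marker genes.

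The rats were male Wistar-Kyoto rats of 12 to 13 weeks, an inbred strain, held in nose-only tubes for 4 h and sampled directly after exposure. The air group breathed 0 ppm acrolein and the acrolein group 3.16 ppm, a level reached in steps at the start of the exposure. RNA of 8 tissues was sequenced in 92 samples, of which 5 air and 6 acrolein samples were nasal epithelium. Sample labels carry numbers, 1 to 8 in the air group and 9 to 16 in the acrolein group. They are read here as animal numbers, which the labels do not state. The nasal samples held between 12232645 and 21100321 reads.

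The lining of the rat nose joins several epithelia in a small space: squamous epithelium near the nostril, respiratory epithelium with ciliated and secretory cells, olfactory epithelium with sensory neurons and their supporting cells, and glands beneath them. Secretory and glandular cells of the nose make large amounts of a few secreted proteins, among them odorant-binding proteins, and olfactory neurons each use 1 receptor of a very large family. Acrolein is a water-soluble, reactive aldehyde that is largely taken up in the nose, so this tissue meets the inhaled dose first. In whole tissue, fewer cells of a type and less RNA per cell cannot be told apart.

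Reads of the 84 members were concentrated in a few rows. Their mean air levels ran from 30.2 to 61900 CPM with a median of 109 CPM. CPM is not divided by transcript length, so the order of members is an order of read share. ENSRNOT00000088538 led with 61900 CPM, followed by rows at 18211, 7031, 4802 and 3732 CPM. The 5 most abundant members held 83.2% of the members' summed air level, 44 members reached 100 CPM and 9 reached 1000 CPM.

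The members took 11.5% ± 4.78 (SD, n = 5) of the reads of an air-exposed nose and 12.8% ± 5.72 (SD, n = 6) of those of an acrolein-exposed nose. In the air group the share was 16.5% in air 2, 15.3% in air 4, 8.53% in air 5, 12.2% in air 6 and 4.96% in air 8. In the acrolein group it was 23.5% in acrolein 9, 12.9% in acrolein 10, 12.3% in acrolein 11, 11.99% in acrolein 12, 6.74% in acrolein 14 and 9.31% in acrolein 15. The acrolein range enclosed most of the air range, and rats of the same group differed several-fold. Counting error was small beside this, since the widest Wilson 95% interval of a share spanned 0.0475 percentage points.

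The next highest tissue in air was hippocampus for 31 members, lung for 20, hypothalamus for 12, adipose for 8, liver for 6, adrenal for 4 and muscle for 3. The count for hippocampus fell to 17 when hippocampus air 2, described further on, was left out of the means. The ratio of the nasal level to the next tissue had a median of 83.9, or 93.3 without hippocampus air 2, and a highest value of 1223, with 37 members at 100 or more. Just inside the ratio limit lay members at 21.2, 21.4 and 21.5 times, and just outside it lay rows at 18.9, 18.6 and 18.4 times. Just inside the level limit lay members at 30.2, 30.2 and 31.1 CPM, and just outside it lay rows at 29.5, 29.1 and 28.0 CPM.

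The acrolein samples had no part in the choice of members, and the restriction held there for most rows. In the means of the acrolein groups, 74 of the 84 members kept both limits. The level limit held for 80 and the ratio limit for 76, with 2 members missing both. The median ratio to the next tissue was 78.0 in the acrolein samples, and the lowest was 8.503. Of the members that missed the ratio limit, 5 had lung as the next tissue, and hippocampus, liver and muscle were next for 1 each. Choosing on the acrolein samples in place of air gave 89 rows, of which 83.1% were among the members and which held 88.1% of them.

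No member changed between air and acrolein in nasal epithelium by the test across all rows. limma was fitted to log2(value + 1) over 20289 rows, and calls needed a Benjamini-Hochberg adjusted p no higher than 0.1 together with a change of more than 1.2-fold in either direction. Over all rows 132 were called, 120 higher and 12 lower in acrolein, a background of 0.651%. Of the 84 members, all of which were tested, 0 were called, and the smallest adjusted p of a member was 0.207. An unadjusted p under 0.05 was reached by 5 members, all lower in acrolein, against 12.2% of all rows. The rule used the air values of this comparison, so members with high air values by chance lean it toward lower levels in acrolein, and nothing is read from that direction. edgeR's quasi-likelihood test on whole reads also called 0 members, with 0.697% of its rows called. DESeq2 called 3 members, all lower in acrolein, with 0.695% of its rows called lower and 2.21% called in either direction.

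The members' log2 fold changes, acrolein minus air, ran from -2.65 to 0.91 with a median of -0.11, while the median over all rows was near 0. With edgeR the members' median was 0.04 and with DESeq2 0.01, so its sign depended on the tool. It was 0.03 when members were chosen on the acrolein samples, so its sign depended on the choice as well. The fitted level was higher in acrolein for 34 members and lower for 50. The precision set how much these values can say. The 95% interval lay within a 2-fold change in either direction for 24 members, reached past 2-fold in one direction for 29, and reached past 2-fold in both directions for 31. A change of 2-fold in those 31 was not detectable with these samples. In the other members it need not have been called either, since calls used a p adjusted over all rows. The median standard error of a member was 0.49 on the log2 scale.

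**Figure D1:**
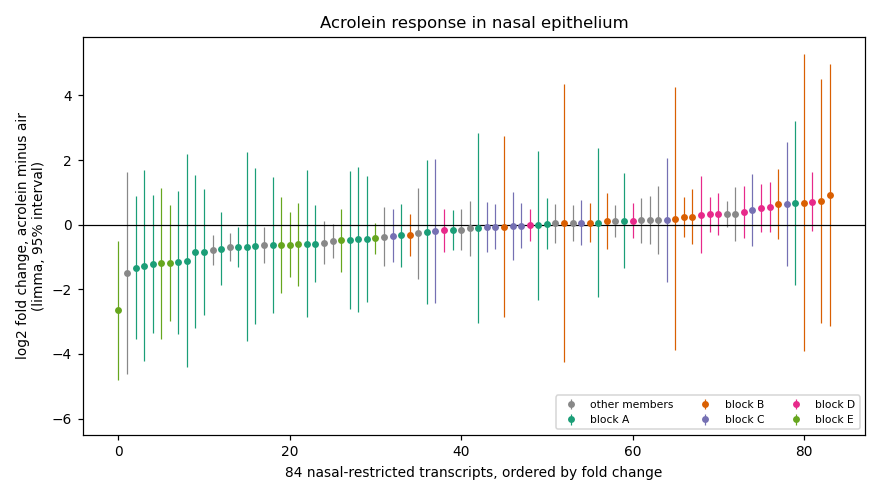
Log2 fold change of each of the 84 nasal-restricted transcripts in nasal epithelium, acrolein minus air, with its limma 95% interval, ordered from -2.65 to 0.91 along the horizontal axis. Colours mark the blocks of members that varied together over the noses. The interval reaches past 0 on both sides for all members but the 5 with an unadjusted limma p under 0.05.

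The most abundant member, ENSRNOT00000088538, stood at 102499 CPM in air 2, 110314 in air 4, 37658 in air 5, 48186 in air 6 and 10842 in air 8. In acrolein it stood at 165049 CPM in acrolein 9, 95596 in acrolein 10, 58041 in acrolein 11, 87710 in acrolein 12, 29934 in acrolein 14 and 53320 in acrolein 15. The groups overlapped over most of their range, with the highest value in acrolein 9 and the lowest in air 8. Its log2 fold change was 0.65 ± 0.89 (SE), with a limma adjusted p of 0.763 and a 95% interval from -1.27 to 2.57. This single row made up 16.5% of the reads of acrolein 9 and 1.08% of those of air 8. Among the 10 most abundant members, 5 had a higher and 5 a lower fitted level in acrolein, between -0.61 and 0.65 on the log2 scale, and none reached an unadjusted p under 0.05.

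The member nearest to a call was ENSRNOT00000043036, the 55th by abundance. It stood at 71.5 CPM in air 2, 85.1 in air 4, 72.2 in air 5, 63.3 in air 6 and 47.2 in air 8. The acrolein noses held 45.1 CPM in acrolein 9, 34.6 in acrolein 10, 46.4 in acrolein 11, 27.9 in acrolein 12, 39.9 in acrolein 14 and 32.4 in acrolein 15. Every acrolein nose was below every air nose on the CPM scale, which held for 1 member and for 1.28% of all rows. On the deposited scale, which the test used, air and acrolein overlapped for this row, and another member was the only one without overlap, against 1.38% of all rows. The log2 fold change of ENSRNOT00000043036 was -0.79 ± 0.22 (SE) with a limma adjusted p of 0.207, past the limit of 0.1. DESeq2 gave an adjusted p of 0.0491 and edgeR one of 0.211. Left without air 8, limma called this row, at -0.96 with an adjusted p of 0.0948.

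ENSRNOT00000076594 had the lowest fold change, and 1 air nose carried much of it. Its membership rests on that nose too, air 6, since its mean over the other 4 air noses was 12.1 CPM, under the limit of 30 CPM, and 10 members were under that limit without their highest air nose. It stood at 23.5 CPM in air 2, 7.15 in air 4, 4.73 in air 5, 230 in air 6 and 12.9 in air 8. In acrolein it stood at 1.06 CPM in acrolein 9, 3.32 in acrolein 10, 0.397 in acrolein 11, 11.8 in acrolein 12, 4.24 in acrolein 14 and 6.93 in acrolein 15. Air 6 was far above every other nose, and the other air noses overlapped the acrolein noses. The log2 fold change was -2.65 ± 1.00 (SE) with a limma adjusted p of 0.347, and left without air 6 it was -1.76. DESeq2 gave an adjusted p of 0.0572.

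The labels of 6 nasal samples carry a suffix with the letter R, in air 4, 5 and 6 and in acrolein 9, 10 and 11, and the labels do not say what it stands for. Among these samples the members' median log2 difference, acrolein minus air, was -0.10, and among the other 2 air and 3 acrolein samples it was -0.07. ENSRNOT00000043036 was lower in acrolein in both subsets, by log2 differences of -0.74 and -0.77. With the suffix as a term in the limma fit, 0 members were called.

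The spread between rats was wider for members than for other transcripts of the nose. The SD within exposure groups, on the log2 scale, had a median of 0.94 over the members and of 0.34 over the 6020 other rows at 30 CPM or more in nasal air. It exceeded 1 in 39 members, 46.4% of them, against 3.36% of those other rows, and it exceeded 2 in 23 members. These are descriptions, since the members share their samples.

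Members rose and fell together over the 11 noses, in blocks that crossed the exposure groups. Members were joined by average linkage on the Pearson correlation of log2(CPM + 1), at a correlation of 0.5. This gave 5 blocks of 8 or more with 66 members in all, and 8 smaller ones with 18. The blocks were made from these values, so no test was run on them.

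**Figure D2:**
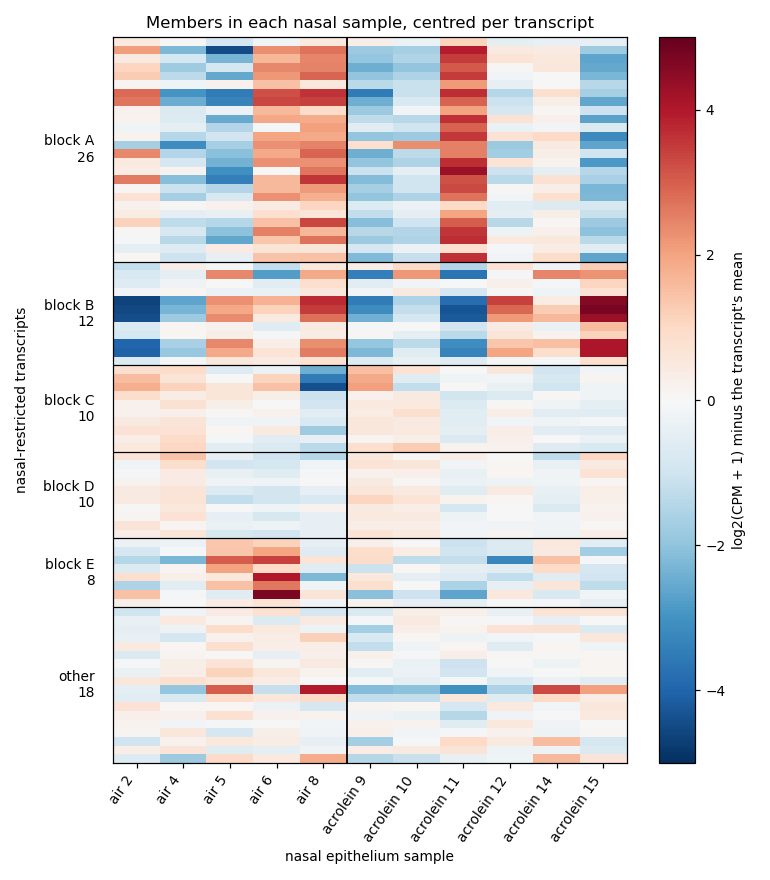
Each row is 1 of the 84 members and each column 1 nasal sample, with colour showing log2(CPM + 1) minus the transcript's mean over the 11 samples. The 26 members of block A are high together in air 6, air 8 and acrolein 11, and several of the 12 members of block B are high in air 8 and acrolein 15 and nearly absent from air 2 and acrolein 11.

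Block A, with 26 members, was the largest. The median level of its members was 112 CPM in air 2, 31.4 in air 4, 21.3 in air 5, 222 in air 6 and 330 in air 8. In acrolein it was 24.5 CPM in acrolein 9, 39.1 in acrolein 10, 581 in acrolein 11, 44.0 in acrolein 12, 81.1 in acrolein 14 and 19.2 in acrolein 15. The lowest and highest noses were both in the acrolein group, and the pair correlation inside the block had a median of 0.85. The summed level of the block was 39961 CPM in acrolein 11 against 3570 CPM in acrolein 15. Its members' median log2 fold change was -0.59, with 22 lower and 4 higher in acrolein and a median SD within groups of 2.01.

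Block B, with 12 members, ran the other way round in acrolein 11 and acrolein 15. Its members' median level was 20.99 CPM in air 2, 38.1 in air 4, 113 in air 5, 41.3 in air 6 and 177 in air 8. In acrolein it was 14.6 CPM in acrolein 9, 27.4 in acrolein 10, 13.6 in acrolein 11, 118 in acrolein 12, 60.0 in acrolein 14 and 350 in acrolein 15. Acrolein 11, the highest nose for block A, was the lowest for block B, and acrolein 15 was the lowest for block A and the highest for block B. Air 8 was high for both.

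ENSRNOT00000082264, a member of block B singled out after its values were seen, showed the widest contrast of the rows named here. It stood at 0.758 CPM in air 2, 7.05 in air 4, 154 in air 5, 88.8 in air 6 and 447 in air 8. In acrolein it stood at 3.60 CPM in acrolein 9, 16.8 in acrolein 10, 1.02 in acrolein 11, 291 in acrolein 12, 96.1 in acrolein 14 and 1074 in acrolein 15. These values rest on 16 reads in air 2 and 17202 reads in acrolein 15, so the gap lies far outside counting error. Its limma log2 fold change over all noses was 0.18 ± 1.88 (SE), and its sign changed when air 2, air 4, acrolein 12, acrolein 14 or acrolein 15 was left out. Its log2 difference, acrolein minus air, was -3.44 among the samples with the label suffix and 4.07 among those without it. In air 2, 5 members were under 1 CPM, all of them in block B.

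The other blocks varied less. Block C, with 10 members, held ENSRNOT00000088538 and 71.8% of the members' summed air level, and its median level was lowest in air 8 at 96.1 CPM and highest in air 4 at 322 CPM. Block D, also with 10 members, had the lowest median SD within groups, 0.61, and its median level lay between 43.7 CPM in air 6 and 129 CPM in acrolein 9. Block E, with 8 members, was highest in air 6 at 700 CPM and air 5 at 648 CPM and lowest in acrolein 12 at 44.1 CPM. All 8 members of block E had a lower fitted level in acrolein, ENSRNOT00000076594 among them, and 1 of them reached an unadjusted p under 0.05. Over the 84 members, the Spearman correlation between 2 noses ran from 0.03, for acrolein 11 and acrolein 15, to 0.91, for acrolein 9 and acrolein 10, with a median of 0.62 over 55 pairs.

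Outside the nose the members were present at low levels in every tissue. For each sample the summed CPM of the members was divided by their summed nasal air level and is given in ppm, where 10000 ppm is 1%. The median over samples was 1374 ppm in lung, 856 in liver, 323 in adrenal, 262 in adipose, 436 in muscle, 766 in hippocampus and 861 in hypothalamus. Between 18 and 82 of the 84 members had at least 1 read in a sample. A second measure, the median over members of each member's own share, gives every member the same weight. It had a median over samples of 1767 ppm in lung, 0 in liver, adrenal and adipose, 314 in muscle, 1106 in hippocampus and 1321 in hypothalamus. The order of lung turned with the ratio limit: with members at 50 times or more, lung fell to 237 ppm, below hippocampus at 891 ppm and hypothalamus at 1000 ppm. A higher limit drops members whose air level in lung is close to the limit, so part of this fall follows from the choice of members.

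**Figure D3:**
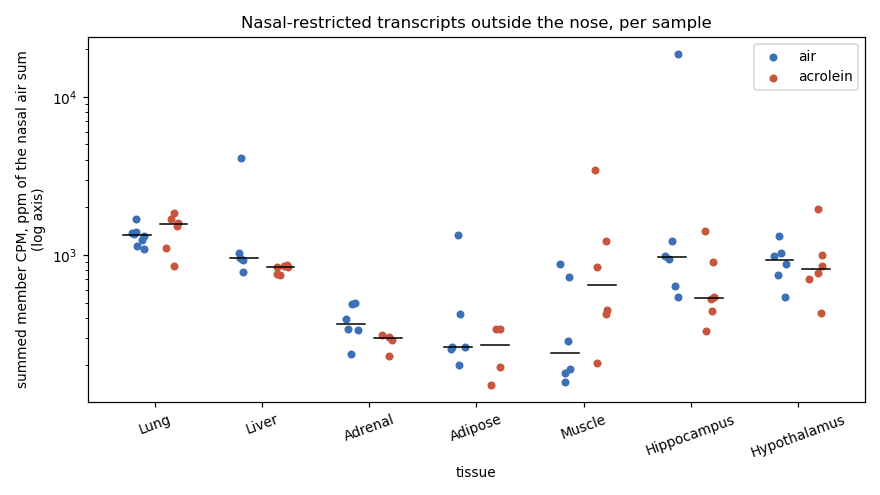
Summed CPM of the 84 members in each sample outside the nose, in ppm of their summed nasal air level on a log axis, for air and acrolein samples of 7 tissues, with a bar at each group's median. Hippocampus air 2 at 18738 ppm, liver air 1 at 4113 ppm, muscle acrolein 14 at 3472 ppm and adipose air 7 at 1341 ppm lie above the other samples of their tissue.

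Different members led in different tissues. In lung the third most abundant member of the nose led, at 45.7 CPM ± 14.2 (SD, n = 14), or 0.650% of its nasal air level, and it was between 29.4 and 83.8 CPM in every lung. In liver, without air 1, the sixth most abundant member led at 42.6 CPM ± 6.24 (SD, n = 10), 1.84% of its nasal air level, and made up 43.0% of the members' summed liver level. The leading members of adrenal and adipose ranked 32nd and 24th in the nose and stood at 7.07 CPM ± 4.12 (SD, n = 10) and 8.13 CPM ± 6.03 (SD, n = 9, with the pair of adipose air samples numbered 8 averaged). In muscle, hippocampus and hypothalamus the leading member was the one that led in the nose, ENSRNOT00000088538.

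In 4 samples the members' level stood above that of the others of the tissue, in 3 of them by both measures. In hippocampus air 2 the members' median share was 17083 ppm, against 419 to 2272 ppm in the other 11 hippocampus samples, and 82 of 84 members had reads. In muscle acrolein 14 it was 3687 ppm, against 0 to 1054 ppm in the other muscles, with 80 members present. In liver air 1 it was 2691 ppm, against 0 in every other liver, with 78 members present and 26 to 39 in the others. In adipose air 7 the summed share was 1341 ppm, against 150 to 424 ppm in the other adipose samples, while its median share of 215 ppm was below that of adipose acrolein 10, at 481 ppm. ENSRNOT00000088538 had 0 reads in adipose air 7, and the ranks of its members did not follow the nose, with a Spearman correlation of -0.10 to the nasal air means over the 84 members. These samples were kept. Without them the median summed share was 635 ppm in hippocampus, 425 in muscle, 850 in liver and 261 in adipose, and the median share was 1063 ppm in hippocampus, 233 in muscle and 0 in liver.

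ENSRNOT00000088538 outside the nose split the samples sharply. It had reads in all 12 muscle, 12 hippocampus, 12 hypothalamus and 11 liver samples and in 0 of 10 adrenals. In adipose 1 of 10 samples had it, and in lung 2 of 14. In the samples without it, 0 reads allow at most 3 reads, a level between 0.0994 and 1.19 CPM depending on depth. These limits and all intervals on reads cover counting error only.

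In lung and adipose the presence of this row followed the spelling of the sample labels. Some sample labels begin with a capital letter and others in lower case, and the labels give no reason. All 41 samples outside the nose with a capital had reads of ENSRNOT00000088538, and so did 0 of the 31 with lower case in lung, adrenal and adipose. Every sample of muscle (12), hippocampus (12) and hypothalamus (12) had a capital, and 0 adrenals did. In these tissues spelling and tissue cannot be told apart, and only lung, adipose and liver held both spellings. The 2 lungs with a capital, acrolein 14 and acrolein 15, both of the acrolein group, held 32 and 20 reads, or 1.18 and 0.879 CPM. Adipose air 8 was deposited as a pair of samples: the one with a capital held 62 reads, or 6.42 CPM, and the one in lower case 0 reads. Liver departed from this, since all 9 lower-case livers held 2 to 26 reads. The livers with a capital, air 1 and air 2, were both of the air group. In lung, adrenal and adipose the label and the presence of this row cannot be told apart from any batch that the spelling stands for.

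**Figure D4:**
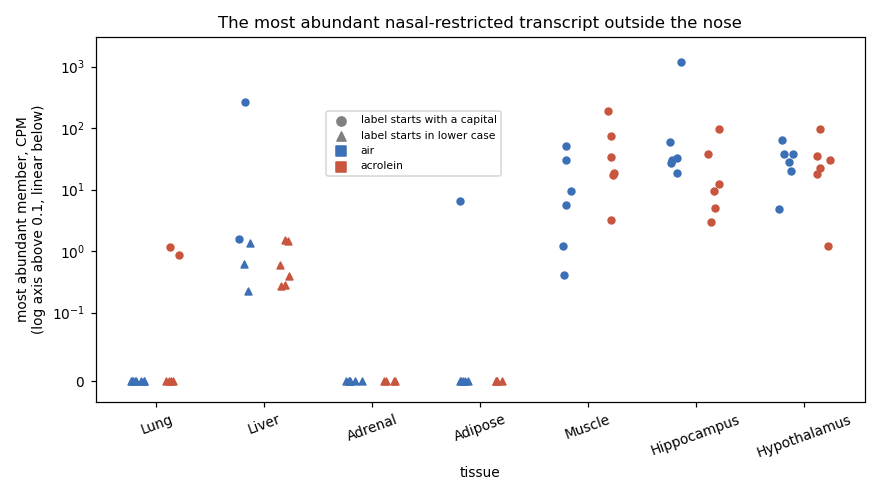
CPM of ENSRNOT00000088538 in each sample outside the nose, on an axis that is logarithmic above 0.1 and linear below, with circles for labels that begin with a capital and triangles for those in lower case. The lower-case lungs, adrenals and adipose samples lie at 0, while muscle, hippocampus and hypothalamus samples lie between 0.403 and 1194 CPM.

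In muscle ENSRNOT00000088538 stood between 0.403 and 50.6 CPM in the 6 air samples and between 3.17 and 190 CPM in the 6 acrolein samples. In hippocampus it was 1194 CPM in air 2 and between 18.6 and 60.5 CPM in the other air samples, against 3.01 to 96.7 CPM in acrolein. In hypothalamus it was between 4.82 and 64.1 CPM in air and between 1.22 and 95.4 CPM in acrolein. In liver it was 265 CPM in air 1 and between 0.221 and 1.58 CPM in every other sample. Air and acrolein overlapped in each of these tissues.

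The 84 members of hippocampus air 2 were set beside each of the 11 noses. Their Spearman correlation was highest with acrolein 15, at 0.95, and next with air 5, at 0.80. With nasal air 2, the nose of the same number, it was 0.40. The label of hippocampus air 2 carries a letter B that no other sample label carries, and the labels do not say what it stands for. Hippocampus air 2 stood at a median of 2.56% of the level in nasal acrolein 15 over the members, with 10th and 90th percentiles of 1.91% and 4.85%. Against nasal air 2 the median was 2.19%, but the percentiles lay at 0.252% and 9.65%. The points share their libraries, so these values describe 2 samples at a time.

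Members of block B showed this directly. The 5 members under 1 CPM in nasal air 2 stood between 5.37 and 25.0 CPM in hippocampus air 2, and each was higher there than in the nose of that number. ENSRNOT00000082264 had 488 reads in hippocampus air 2, or 25.0 CPM, against 0.758 CPM in nasal air 2, 1074 CPM in nasal acrolein 15 and at most 0.239 CPM in the other hippocampus samples. No member was higher in hippocampus air 2 than in nasal acrolein 15. The members made up 0.216% of the reads of hippocampus air 2, with a Wilson 95% interval from 0.214% to 0.218%.

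Rows that are not members were also closest to nasal acrolein 15. The 129 other rows under 0.5 CPM in every other hippocampus sample and at 10 CPM or more on average in the nose correlated best with nasal acrolein 15, at a Spearman correlation of 0.74, and next with acrolein 12, at 0.66. With nasal air 2 the value was 0.34. The source of these reads was not tested.

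**Figure D5:**
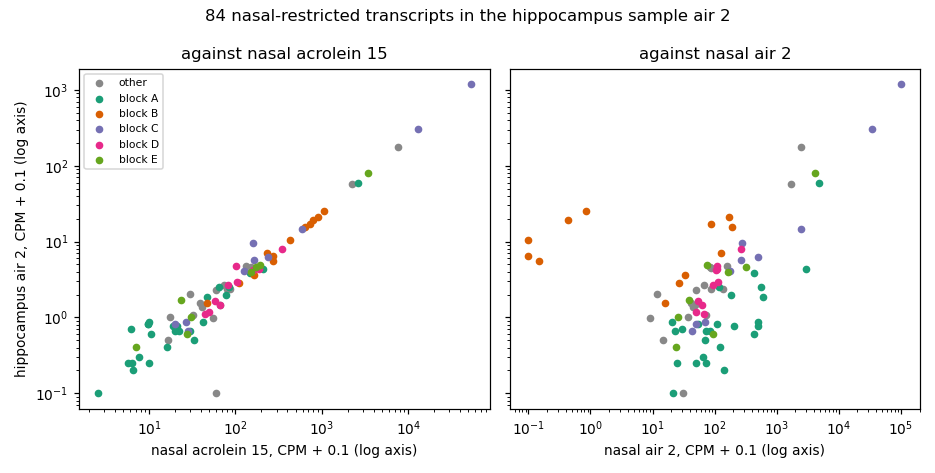
CPM + 0.1 of the 84 members in hippocampus air 2 against nasal acrolein 15, left, and against nasal air 2, right, on log axes, with colours for the blocks. On the left the members lie along a line, and on the right they scatter more widely. There the 5 members of block B at under 1 CPM in the nose lie at the left edge, between 5.37 and 25.0 CPM in hippocampus air 2.

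The other 2 samples that stood apart matched no single nose as closely. Muscle acrolein 14 correlated best with nasal air 2, at 0.82, then with acrolein 11, at 0.79, and at 0.76 with the nose of the same number. After subtracting the median of the other muscles it correlated best with acrolein 11, at 0.81. Liver air 1 correlated best with nasal acrolein 12, at 0.82, and no nasal sample carries its number. Among the remaining samples outside the nose, the highest correlation with any nose was 0.75.

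No member was called between air and acrolein in any of the other 7 tissues by limma, but the members leaned in 1 direction in 3 of them. The rule set an upper limit on the air levels of these tissues. Members with low air values there by chance lean the comparison toward higher levels in acrolein. Members also share their libraries, so their counts are descriptions and nothing is read from the directions. In muscle 72 of 82 members tested had a higher fitted level in acrolein, with a median log2 fold change of 0.73. An unadjusted p under 0.05 was reached by 13 members, all higher, or 15.9%, against 2.99% of all rows, and 0 rows of any kind were called by limma or edgeR. DESeq2 called 0 members and 0.0302% of its rows. Without acrolein 14 the median was 0.44, with 60 higher and 7 members under that limit, or 8.54%, against 2.79% of all rows in the same fit. The members' median share in muscle was 680 ppm in acrolein and 96.6 ppm in air, and 395 ppm in acrolein without acrolein 14. ENSRNOT00000088538 had a log2 fold change of 2.33 ± 1.07 (SE) in muscle, with a limma adjusted p of 0.99991, and of 1.77 without acrolein 14.

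In hippocampus the lean was downward. Of 83 members tested, 70 had a lower fitted level in acrolein, the median log2 fold change was -0.58, and 11 members, all lower, reached an unadjusted p under 0.05, against 4.31% of all rows. Without air 2 the median was -0.20, with 50 of 81 lower and 4 members under that limit, or 4.94%, against 3.97% of all rows in the same fit. For all rows limma, edgeR and DESeq2 called 0, and the smallest adjusted p of a member was 0.833 by limma.

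In liver 49 of 60 members tested were lower in acrolein, with a median log2 fold change of -0.39. The only livers whose labels begin with a capital, air 1 and air 2, were both in the air group, so spelling was uneven between the groups. Without air 1 the median was -0.02, with 25 lower and 23 higher of 48 tested, and 14.6% of members under an unadjusted p of 0.05 against 13.4% of all rows in that fit. In the fit on all livers, limma called 0 members, against 0.368% of all rows. In that fit 5 members reached an unadjusted p under 0.05, against 19.2% of all rows. edgeR called 1 member and DESeq2 called 2, all lower in acrolein, against 2.58% and 8.70% of their rows. The member that edgeR called was ENSRNOT00000088538, whose only liver above 1.58 CPM was air 1, and its limma log2 fold change moved from -1.99 to -0.31 without that sample.

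In the remaining 4 tissues the members' medians lay closer to 0. In hypothalamus the members' median log2 fold change was 0.14 and 6 of 81 members reached an unadjusted p under 0.05, against 2.69% of all rows. In lung the median was 0.13 with 3 of 79 members under that limit against 7.67%, and 0.00499% of all rows were called. In adrenal it was 0.00 with 5 of 53 against 7.54%, and in adipose -0.06 with 0 of 59 against 2.71%. limma, edgeR and DESeq2 called 0 members in each of these 4 tissues. Over the 7 tissues outside the nose, edgeR's filter on low counts left 7 to 26 members to test. The share of all rows that DESeq2 called was 0.468% in lung, 0.0903% in adrenal, 0.00502% in adipose and 0.00496% in hypothalamus, and edgeR called 0.0396% in lung and 0 rows in the other 3.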

How the data were processed

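RNA-seq of 8 rat tissues was used, mapped by the authors to rn7 in Partek Flow, with DESeq2 in R 4.1.3 named in their notes. The deposited unit is a signal, read counts scaled by the authors with 1 size factor for each sample, separately in each tissue. A level set across tissues therefore used CPM, each value divided by its column sum. Taking the smallest value above 0 of a column as 1 read gave whole reads to within 0.01 reads for at least 99.99% of values in every tissue. Sample totals ran from 2513375 to 30194066 reads. Columns were mapped by name. The pair of adipose air samples numbered 8 was averaged (its reads were summed). p-values set the difference between groups against the spread between samples, which are read here as rats.

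limma 3.58.1 in R 4.3.3 (lmFit, eBayes with trend) was fitted per tissue to log2(value + 1) over rows above 0 in at least 2 samples. A fold change on this scale understates that of low rows. edgeR 4.0.16 and DESeq2 1.42.0 on whole reads were alternatives, and an adjusted p that DESeq2 gave as NA (for 3 members in the nose) stayed NA. On simulated nasal reads, limma recovered 100 of 100 rows changed 4-fold and 47 of 100 changed 2-fold, with 10 other calls over 20316 rows. The simulation gave every row the same scatter between samples and did not use the wider spread of the members. These rates therefore do not carry over to the members.

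The members and lists were chosen with earlier results of these data known. Named rows were the most abundant members, the falls with the lowest fold change or nearest to a call, and those highest outside the nose, with at most 4 identifiers printed. Results on gene lists, marker genes, promoters and proteins were not computed, since 0 identifiers were paired with a symbol.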

Additional observations from a re-analysis of the deposited data

Results flagged for a closer look

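Dixon's gap over range was computed for 23 sets of values, each 1 measure in 1 group of 4 to 8 samples, and in 10 of them 1 sample lay past the 95% critical value. Chance would flag about 1 in 20 sets of normally distributed values. The values here were CPM, ppm and percent, not on a log scale, and normality was not tested, so the count of 10 is not set against that rate. The rate also fails for 4 of these sets, in which every other sample was at 0 so that any value above 0 is flagged. It fails for ENSRNOT00000082264, which was singled out after its values were seen. It fails as well for ENSRNOT00000076594 in the air noses, named for its lowest fold change. The flagged nose carried much of that change, and the membership of the row rests on it.

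The largest gaps outside the nose were in the median share of the nasal-restricted transcripts: 17083 ppm in hippocampus air 2, 3687 ppm in muscle acrolein 14 and 2691 ppm in liver air 1. Smaller values also stood apart in groups in which the other samples were at 0 or near it: 58.5 ppm in adrenal air 5, 35.8 ppm in adrenal acrolein 9, 215 ppm in adipose air 7 and 481 ppm in adipose acrolein 10. ENSRNOT00000088538 had 0 reads in those adrenal and adipose samples.

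In the nose, acrolein 9 gave 23.5% of its reads to the members, the highest of its group. ENSRNOT00000076594 was highest of the air noses in air 6, at 230 CPM. ENSRNOT00000082264 was highest of the acrolein noses in acrolein 15, at 1074 CPM.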

How the results depend on the processing

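The count of 0 called members in the nose was also 0 under the other pseudocounts, filters, scalings and limits, with edgeR, and with the label suffix as a term (chosen after seeing the data). It was 3 with DESeq2, and 1 when members were chosen on the acrolein samples; leaving out 1 nose gave 0 to 1, with 1 without air 8 and 1 without acrolein 11. The members' median log2 fold change ran from -0.32 to 0.04 over the alternatives and from -0.26 to -0.06 with 1 nose left out. In liver edgeR called 1 member and DESeq2 2, and leaving out 1 liver gave 0 to 1. In the other 6 tissues every alternative gave 0. The list of 84 became 44 at 100 CPM, 50 at 50 times, and 175 on normalized values in place of CPM. Without hippocampus air 2 it held 85 rows, all 84 among them.

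The shares below were counted as moved against the spread between samples. Every liver but air 1 had a median share of 0, so for liver air 1 there was no spread to exceed. For lung, the median was 237 ppm with members at 50 times and 833 ppm at 100 CPM. The ratio of sums, a different measure, gave 856 ppm in liver, 323 ppm in adrenal and 262 ppm in adipose, against medians of 0. For liver air 1 the share was 2210 ppm at 50 times, 2339 ppm at 100 CPM, 2718 ppm without the 10 highest members and 4113 ppm as a ratio of sums. For hippocampus air 2 these were 9510, 14358, 18082 and 18738 ppm. The nose closest to hippocampus air 2 was acrolein 15 by every measure tried, at 0.74 to 0.96, the measures and the list without that sample having been chosen after seeing the data.

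ENSRNOT00000076594 was called by DESeq2 alone, at -3.50, and ENSRNOT00000043036 by DESeq2, at -0.81, and without air 8. ENSRNOT00000082264 ran from -1.12 to 1.22 with 1 nose left out, and was -0.10 with the label suffix as a term. No paired analysis was possible because air and acrolein samples share no number in their labels. With 5 and 6 noses and a spread this wide, changes of 2-fold were not detectable in 31 members. The 95% interval of 29 more reached past 2-fold in 1 direction, and in the remaining members a 2-fold change need not have been called.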
